A study of Mus musculus with 14 samples.

Results

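Fos, Fosb, Jun, Junb, Jund, Ier2, Atf3, Dusp1, Btg2 and Klf6 are genes whose transcripts appear within minutes of a signal reaching a cell. They were followed as AP-1 and other immediate early genes in splenic germinal centre B cells of 14 mice, and all 17 probe sets annotated to 1 of these 10 genes alone were taken, of 45037 non-control probe sets and 18193 named genes. KO mice were Crebbpfl/fl Cg1-Cre (n = 5, KO 1, KO 2 and KO 5 male), HET mice were Crebbpfl/+ Cg1-Cre (n = 5, HET 1 and HET 4 male) and WT mice were Crebbp+/+ Cg1-Cre (n = 4, WT 4 male). All 14 mice carried the Cre transgene, which acts in B cells once they are activated, so WT mice differ from the others by the floxed alleles and not by Cre. They had a C57BL/6x129Sv background and were 8 to 12 weeks old. Sheep red cells were injected on days 0 and 5, and the spleen was taken on day 12. B cells were enriched with an isolation kit, sorted as B220+CD95+PNA+ from each mouse alone, and their amplified RNA was read on 1 Affymetrix Mouse Genome 430 2.0 array per mouse. The sort did not select cells by recombination of Crebbp.

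Immediate early genes need no new protein for their induction, because their promoters are held ready by factors such as CREB and SRF that kinases phosphorylate. Fos and Jun proteins pair to form AP-1, which binds DNA and switches on later genes, while Dusp1 is a phosphatase that turns the kinases off again. Crebbp encodes the CREB-binding protein, an acetyltransferase named for its binding to phosphorylated CREB, and the comparison asks how these genes stood when 1 or both of its alleles were floxed. In B cells they respond to antigen receptor and CD40 signals, and they are also known to respond to the handling of cells during tissue preparation.

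Per RefSeq (GRCm38.p6), Fos lies at chr12:85473890-85477274, Fosb at chr7:19302696-19310118, Jun at chr4:95049036-95052222, Dusp1 at chr17:26505591-26508472 and Klf6 at chr13:5861489-5870393. Junb (chr8:84976909-84978748), Jund (chr8:70697739-70700616) and Ier2 (chr8:84661331-84662852) share chromosome 8, and Atf3 (chr1:191170296-191183333) and Btg2 (chr1:134074865-134079155) share chromosome 1. Letters of the CREB site were looked for in the 250 bases before the transcription start that RefSeq gives for 9 of the genes. The full palindrome TGACGTCA was present in 1.546% of 32851 such windows and in 2 of the 9, Dusp1 and Btg2. Its half-site TGACG, searched on both strands and contained in the full site, was present in 17.77% of all windows and in 6 of the 9, namely Fos, Fosb, Junb, Atf3, Dusp1 and Btg2. The windows below are those of the 4 genes that varied most between mice, and of Btg2, which held the full site and whose brightest probe set varied little. They lie at chr12:85473640-85473889 on the plus strand for Fos, and on the minus strand at chr7:19310046-19310295 for Fosb, chr4:95052223-95052472 for Jun, chr17:26508473-26508722 for Dusp1 and chr1:134079156-134079405 for Btg2. The start used for Fosb is inside its RefSeq gene span, so 73 bases of that window overlap the span, while the other 8 windows end where the gene begins. Capitals mark the full site or the half-site, and each sequence runs 5′ to 3′ on the strand of the gene.
Fos: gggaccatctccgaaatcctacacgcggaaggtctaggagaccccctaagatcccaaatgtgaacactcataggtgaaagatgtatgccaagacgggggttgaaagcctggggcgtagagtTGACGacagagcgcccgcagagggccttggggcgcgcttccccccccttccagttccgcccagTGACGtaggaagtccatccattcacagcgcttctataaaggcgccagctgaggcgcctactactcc
Fosb: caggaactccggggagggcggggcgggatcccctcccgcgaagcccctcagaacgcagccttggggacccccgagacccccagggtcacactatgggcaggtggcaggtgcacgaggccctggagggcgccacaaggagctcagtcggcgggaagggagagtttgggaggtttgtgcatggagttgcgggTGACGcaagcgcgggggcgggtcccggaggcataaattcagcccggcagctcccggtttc
Jun: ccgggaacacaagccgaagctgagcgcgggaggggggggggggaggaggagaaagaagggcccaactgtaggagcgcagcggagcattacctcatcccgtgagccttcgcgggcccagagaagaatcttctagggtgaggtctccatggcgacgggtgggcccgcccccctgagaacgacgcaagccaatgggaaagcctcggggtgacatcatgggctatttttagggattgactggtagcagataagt
Dusp1: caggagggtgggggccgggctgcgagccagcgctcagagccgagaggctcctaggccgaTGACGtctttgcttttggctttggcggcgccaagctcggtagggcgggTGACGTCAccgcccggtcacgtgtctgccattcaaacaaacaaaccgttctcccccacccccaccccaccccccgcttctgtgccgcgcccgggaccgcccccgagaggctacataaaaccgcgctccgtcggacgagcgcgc
Btg2: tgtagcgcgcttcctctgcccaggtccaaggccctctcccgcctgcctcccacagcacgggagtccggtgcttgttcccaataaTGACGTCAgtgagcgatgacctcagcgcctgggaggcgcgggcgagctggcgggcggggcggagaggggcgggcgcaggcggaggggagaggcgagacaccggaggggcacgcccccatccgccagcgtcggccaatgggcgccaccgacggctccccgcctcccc
In the Fos window the half-site started 129 and 66 bases before the start, and a TATAAA, a motif in 12.37% of windows, stood 33 bases before it. In Fosb the half-site stood 60 bases before the start used here, inside the gene span. The full sites began 143 bases before the start in Dusp1 and 166 in Btg2, and Dusp1 had a further half-site 191 bases before it. The Jun window held neither, and the AP-1 site TGACTCA, in 4.463% of windows, and the CArG box bound by SRF, in 1.467%, were in 0 of the 9. A match is a run of letters and shows no binding. Bases further upstream were not searched, so a motif absent here may lie outside the 250 bases.

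The labels were checked on Crebbp. On probe set 1436983_at, the one with the largest difference, the log2 intensity was 9.29 to 9.56 in the 5 KO mice, 9.81 to 10.20 in the 5 HET mice and 10.19 to 10.36 in the 4 WT mice, a KO change of -0.86 with limma adjusted p = 0.00168 over 45037 probe sets. Every KO value lay below every HET and WT value, while the highest HET value passed the lowest WT value. In the same fit 1434633_at, 1435224_at and 1459804_at had KO changes of -0.47, -0.41 and -0.30. Their limma adjusted p was 0.095, 0.136 and 0.703, so they did not pass. On 1435224_at and 1459804_at the KO and HET values overlapped. Markers of germinal centre B cells (8 genes measured) averaged 12.27 to 12.38 in KO, 12.38 to 12.43 in HET and 12.42 to 12.49 in WT mice, so the sorted type was present on all 14 arrays. The marker average of every KO mouse lay below that of every WT mouse. Of the 8 markers 1 was called lower in KO against WT, when 1.26% of all genes tested were. KO 3 resembled the other arrays least, with a median correlation of 0.979, where the other 13 had 0.984 to 0.990. The labels give no sort day, so a batch of that kind cannot be told apart from the mice.

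No gene of the set passed the test in any of the 3 comparisons, and the largest differences ran between mice of one genotype. All values are log2 intensities, in which 1 unit is a doubling, and changes are those of limma with sex as a covariate. Fewer cells with a transcript and less of it per cell cannot be told apart in such sorted bulk samples. Genes were tested when their brightest probe set averaged above 6.43, the median of all probe sets, which left 10225 genes and 8 of the 10 here. Fosb and Atf3 averaged less and were read in the fit over all 45037 probe sets. In KO against WT 0 of the 8 were called at a limma adjusted p of 0.05, when 2.44% of all genes tested were. At an unadjusted p under 0.05 stood 2 of the 8, Junb and Ier2, when 13.1% of all genes tested did. In HET against WT 0 of the 8 were called, when 0% of genes were, and 0 had an unadjusted p under 0.05, when 2.74% of genes did. In KO against HET 0 of the 8 were called, when 0.264% of genes were, and again 0 had an unadjusted p under 0.05, when 6.39% of genes did.

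The AP-1 subunit Fos gave the widest spread of values among the genes tested here. Its probe set 1423100_at read 12.12, 8.56, 10.14, 10.27 and 10.93 in KO mice 1 to 5, 12.10, 12.26, 7.73, 9.998 and 8.73 in HET mice 1 to 5, and 12.13, 12.12, 12.41 and 9.10 in WT mice 1 to 4. One KO mouse, 2 HET mice and 3 WT mice lay within 12.10 to 12.41, the others at 10.93 or less, and the groups overlapped throughout. Mean levels were 10.41 ± 1.29 in KO (SD, n = 5), 10.16 ± 2.01 in HET (SD, n = 5) and 11.44 ± 1.56 in WT mice (SD, n = 4). The KO change was -1.01 (SE 1.06, 95% interval -3.29 to 1.27, limma adjusted p = 0.808), the HET change -1.27 (SE 1.02, interval -3.47 to 0.94), and the KO level differed from HET by 0.26 (SE 0.97). These intervals hold both no change and several-fold changes in level. Without WT 4 the KO change was -2.35 and without KO 2 it was -0.63, neither passing. The HET change was -2.42 without WT 4 and -0.55 without HET 3. The KO difference from HET was negative in 5 of 29 alternatives.

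Fosb, a close relative of Fos that also pairs with Jun proteins, divided the mice without any value between. Probe set 1422134_at read 7.65, 3.58, 3.74, 3.68 and 4.05 in KO mice 1 to 5, 7.45, 8.32, 3.62, 4.23 and 3.68 in HET mice 1 to 5, and 7.39, 7.36, 8.17 and 3.77 in WT mice 1 to 4. The same KO 1, HET 1, HET 2, WT 1, WT 2 and WT 3 lay at 7.36 or more, and the other 8 mice at 4.23 or less. The gap of 3.13 took up 65.9% of the range. With group and sex removed, the residual SD of 2.10 ranked 4 of 45037 probe sets. The change in KO was -2.08 (SE 1.28, limma adjusted p = 0.919 over all probe sets), the HET change -1.19 (SE 1.24) and the KO difference from HET -0.89 (SE 1.17). Without WT 4 the KO change was -3.70, which did not pass, and the HET change -2.58, against -0.63 without HET 3. The 8 lower values lie well below the filter level of 6.43, so these changes are set against a level not shown to be above background and no fold is given.

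Jun, the partner of Fos proteins in AP-1, followed much the same division. On probe set 1448694_at it read 9.04, 7.47, 7.71, 7.09 and 9.32 in KO mice 1 to 5, 9.05, 9.36, 6.62, 7.86 and 7.20 in HET mice 1 to 5, and 8.80, 8.73, 9.36 and 7.69 in WT mice 1 to 4. KO 5 joined the 6 mice that were high in Fosb, and the gap below these 7 was 0.88. The change in KO was -0.67 (SE 0.62, limma adjusted p = 0.767), the HET change -0.69 (SE 0.60) and the KO difference from HET 0.02 (SE 0.57). The dimmer Jun probe set 1417409_at gave -0.84 (SE 0.55) for KO and -0.65 (SE 0.53) for HET. Without WT 4 the KO change of the brighter one was -1.42 and without KO 4 it was -0.37. Its HET change was -1.33 without WT 4 and -0.34 without HET 3.

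Dusp1, the phosphatase that ends the kinase signal, divided the mice at the same place with a smaller step. Probe set 1448830_at read 12.06, 11.06, 10.99, 11.32 and 11.43 in KO mice 1 to 5, 12.19, 12.34, 11.21, 11.40 and 11.19 in HET mice 1 to 5, and 12.09, 12.16, 12.47 and 11.31 in WT mice 1 to 4. The 6 mice high in Fosb lay at 12.06 or more and the others at 11.43 or less, a gap of 0.63. For KO the change was -0.63 (SE 0.32, 95% interval -1.32 to 0.05, limma adjusted p = 0.429), the HET change -0.34 (SE 0.31) and the KO difference from HET -0.29 (SE 0.29). Without WT 4 the KO change was -1.04, which did not pass, and the HET change -0.69, against -0.19 without WT 3.

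**Figure D1:**
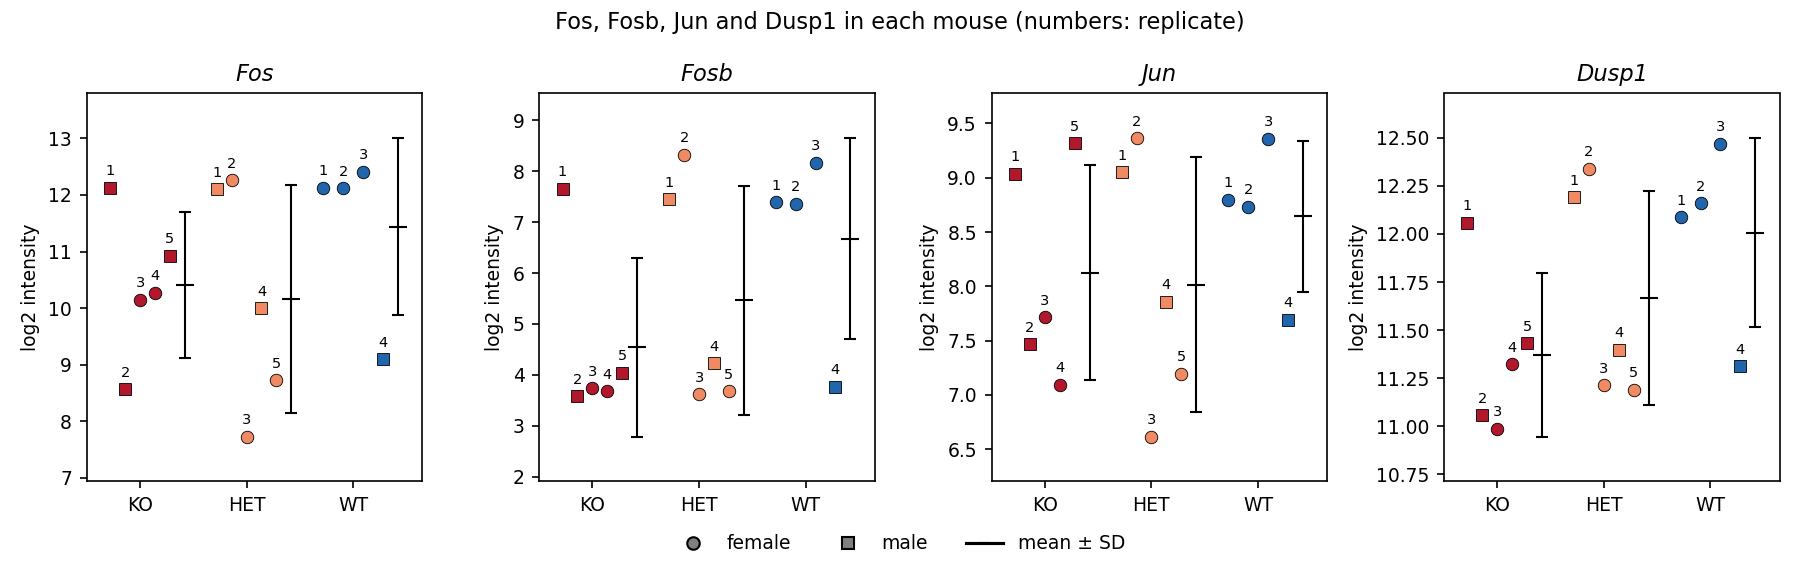
Log2 intensity of Fos, Fosb, Jun and Dusp1 (brightest probe set) in each mouse, by genotype, with the replicate number above each point. Squares are males, circles females, and bars give the mean ± SD (n = 5 KO, 5 HET and 4 WT). KO 1, HET 1, HET 2, WT 1, WT 2 and WT 3 are high in all 4 genes, and the groups overlap.

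The spread between mice of these 4 genes was far above that of a usual gene. With group and sex removed, the residual SD was 1.74 for Fos (rank 3 of 10225 genes tested), 1.02 for Jun (rank 16) and 0.52 for Dusp1 (rank 95), where the median gene had 0.15. Over all 14 mice the highest and lowest levels differed 25.7-fold for Fos, 6.72-fold for Jun and 2.79-fold for Dusp1. The other 5 genes tested had residual SDs from 0.07 for Jund (percentile 6.17) to 0.23 for Junb (percentile 82.3) on their brightest probe sets. Dimmer probe sets of 2 of them varied more, at 0.48 for Klf6 1418280_at (percentile 96.4 of all probe sets, where Dusp1 had 97.0) and 0.32 for Btg2 1416250_at (percentile 87.6). In HET mice both sexes stood on both sides of the division. The only KO mouse on the higher side of Fosb was a male, and the only WT mouse on the lower side was the only male WT mouse. By replicate number, KO 1, HET 1 and WT 1 all stood on the higher side. KO 4, KO 5, HET 4, HET 5 and WT 4 all stood on the lower side, and mice numbered 2 or 3 on both. What the replicate number stands for is not given, and its part in the division was not tested.

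**Figure D2:**
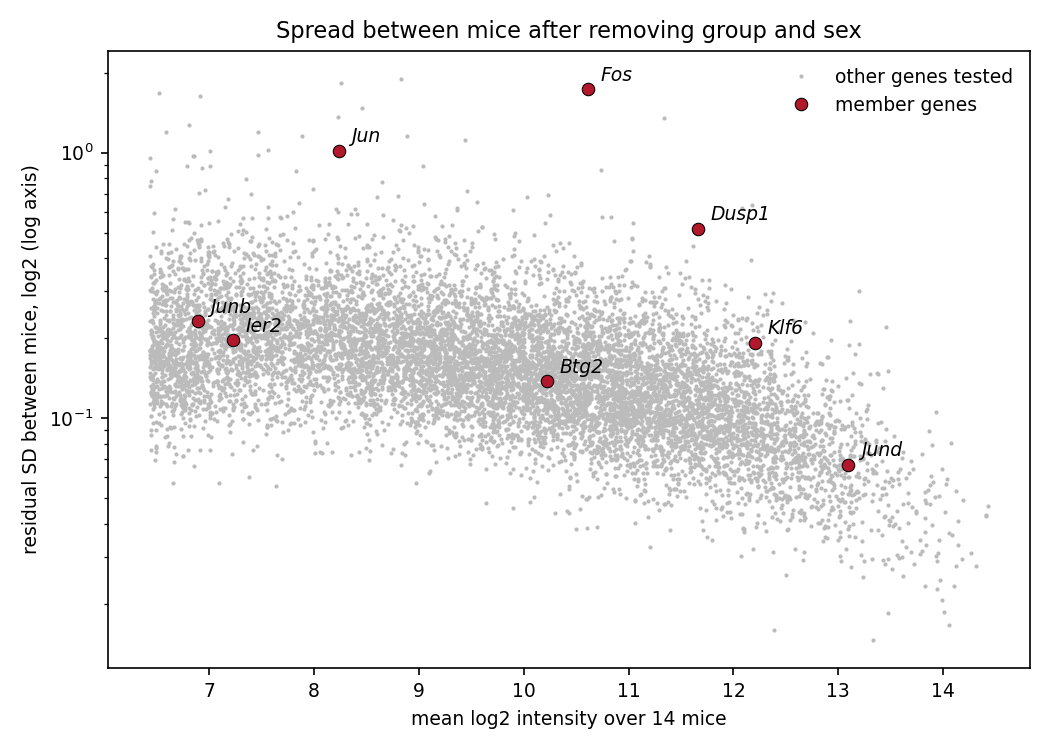
Residual SD between mice, after group and sex were removed, against the mean log2 intensity for the 10225 genes tested. The vertical axis is logarithmic, and Fos, Jun and Dusp1, at 1.74, 1.02 and 0.52, lie near the top of the cloud while Jund, at 0.07, lies low.

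Junb, a Jun family member that often acts as a weaker activator than Jun, was the only gene here with every KO value below every WT value. Probe set 1415899_at read 6.90, 6.48, 6.62, 6.72 and 6.76 in KO mice 1 to 5, 7.07, 7.26, 6.43, 6.87 and 6.83 in HET mice 1 to 5, and 6.95, 7.13, 7.09 and 7.43 in WT mice 1 to 4. That is 1 of the 10 genes, and 3.65% of all genes tested had every KO value below every WT value. HET values covered almost the whole range of both. The KO change was -0.51 (SE 0.15, 95% interval -0.83 to -0.19, limma adjusted p = 0.102), which did not pass. The HET change was -0.28 (SE 0.14) and the KO difference from HET -0.23 (SE 0.14). Leaving out HET 2, whose spread enters the shared estimate, brought the KO change to -0.53 with limma adjusted p = 0.037, and over all 28 alternatives the adjusted p lay between 0.037 and 0.488.

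Atf3, a bZIP factor induced by stress that can repress AP-1 targets, was also lower in KO means. Probe set 1449363_at read 6.05, 6.01, 6.42, 5.98 and 6.07 in KO mice 1 to 5, 6.28, 6.52, 6.47, 6.59 and 6.30 in HET mice 1 to 5, and 6.49, 6.41, 6.86 and 6.80 in WT mice 1 to 4. All KO mice but KO 3 lay below every HET and WT mouse. For KO the change was -0.53 (SE 0.13, limma adjusted p = 0.132 over 45037 probe sets), the HET change -0.21 (SE 0.12) and the KO difference from HET -0.33 (SE 0.12, limma adjusted p = 1.00). The probe set is dim, and RMA compresses differences at such levels. In that fit 0.315% of all probe sets were called in KO against WT, 0% in HET against WT and 0% in KO against HET, and 0 of the 17 here were called in each.

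Ier2, a nuclear protein of the early response, read 7.10, 6.92, 7.16, 7.10 and 7.27 in KO mice 1 to 5, 7.44, 7.39, 7.21, 6.96 and 7.16 in HET mice 1 to 5, and 7.41, 7.36, 7.06 and 7.66 in WT mice 1 to 4. The groups overlapped, since WT 3 lay below 4 of the 5 KO mice. For KO the change was -0.28 (SE 0.13, limma adjusted p = 0.362), the HET change -0.15 (SE 0.12) and the KO difference from HET -0.14 (SE 0.12).

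Jund, the Jun family member that most cells hold at a steady level, was the least variable gene of the set. Probe set 1449117_at read 13.14, 13.001, 13.09, 12.90 and 13.04 in KO mice 1 to 5, 13.15, 13.16, 13.07, 13.12 and 13.03 in HET mice 1 to 5, and 13.16, 13.14, 13.17 and 13.13 in WT mice 1 to 4. The 6 mice high in Fosb were also its 6 highest, by a margin of only 0.02. The KO change was -0.13 (SE 0.06, limma adjusted p = 0.394), and the whole range over 14 mice was 1.21-fold. Its second probe set, 1440265_at, lay between 5.62 and 6.02 in every mouse.

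Btg2, a gene that slows division and is a known target of p53, showed no division of the mice. Probe set 1448272_at read 10.17, 10.13, 9.92, 10.34 and 10.08 in KO mice 1 to 5, 10.15, 10.34, 10.46, 10.24 and 10.29 in HET mice 1 to 5, and 10.10, 10.23, 10.21 and 10.39 in WT mice 1 to 4. The groups overlapped throughout. The KO change was -0.10 (SE 0.10, 95% interval -0.30 to 0.11) and the HET change 0.07 (SE 0.09), and both changed sign in some settings. Its second probe set, 1416250_at, had the changes -0.07 (SE 0.21) for KO and -0.12 (SE 0.20) for HET.

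Klf6, a zinc finger factor, is read by 5 probe sets, the most of any gene here. The brightest, 1433508_at, read 12.34, 12.09, 11.67, 12.31 and 12.28 in KO mice 1 to 5, 12.16, 12.34, 12.08, 12.31 and 12.27 in HET mice 1 to 5, and 12.34, 12.30, 12.23 and 12.14 in WT mice 1 to 4. KO 3 was the lowest mouse on all 5 probe sets, at 8.15 on 1418280_at where the other KO mice had 8.84 to 9.87. The KO change of the brightest was -0.14 (SE 0.13, limma adjusted p = 0.752) and without KO 3 it was 0.03. KO changes of the other 4 probe sets ran from -0.47 (SE 0.30) to -0.19 (SE 0.17), with 0 called. On 1427742_a_at the largest gap, 0.25, lay below KO 5, HET 1, HET 2, WT 1, WT 2 and WT 3. All of these but KO 5 were high in Fosb.

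**Figure D3:**
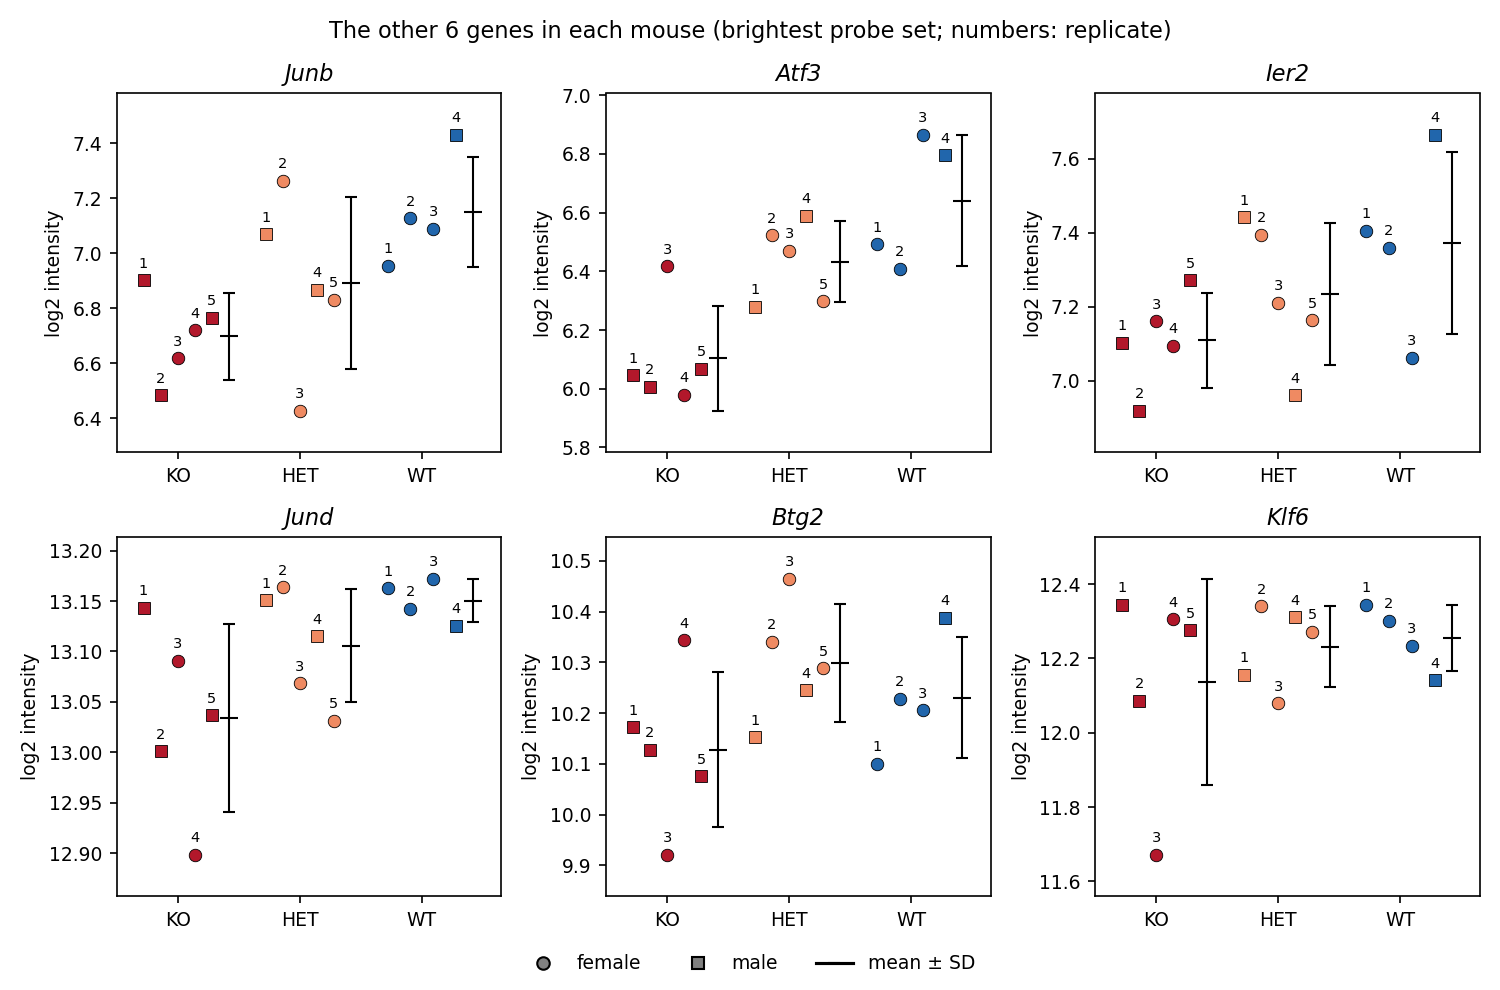
Log2 intensity of Junb, Atf3, Ier2, Jund, Btg2 and Klf6 (brightest probe set) in each mouse, by genotype, with the replicate number above each point; axes differ in range. Squares are males, circles females, and bars give the mean ± SD (n = 5 KO, 5 HET and 4 WT). In Junb every KO mouse lies below every WT mouse, and in the other 5 genes the groups overlap.

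In direction the set leaned one way without any gene passing. The KO mean was below the WT mean on all 17 probe sets, 5 of them of Klf6, where 52.2% of all probe sets had a lower KO mean. The means ran in the order KO, HET, WT from low to high in 7 of the 10 genes, and in 26.8% of all named genes. Fos, Jun and Btg2 did not keep that order. The median change of the 8 genes tested was -0.40 in KO against WT, where the median of all 10225 genes was -0.0027. In HET against WT it was -0.21 against 0.0013, and in KO against HET -0.12 against -0.0052. KO and HET are set against the same 4 WT mice, 3 of which were on the high side of the division, so these medians are not separate evidence.

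**Figure D4:**
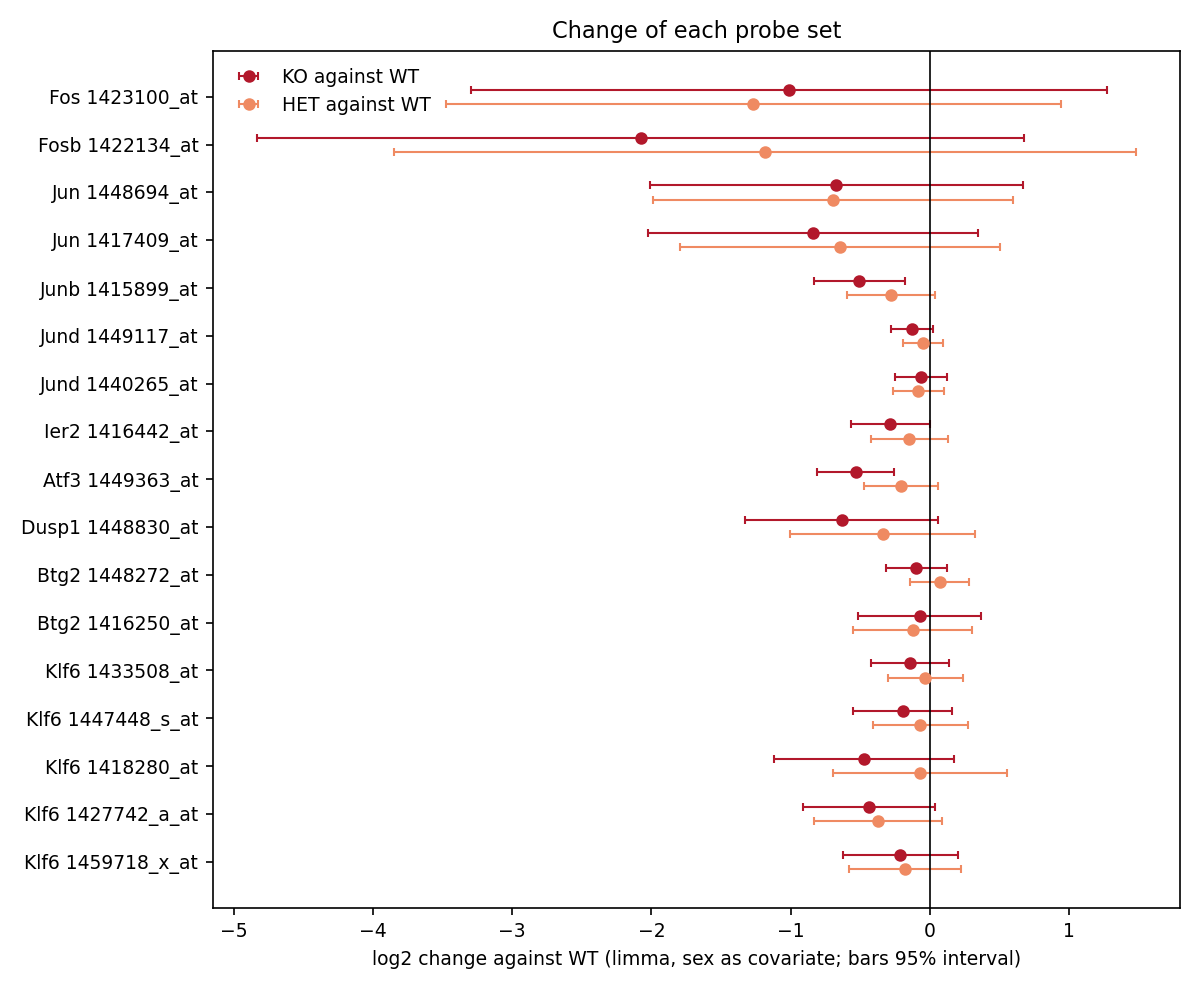
Log2 change of each of the 17 probe sets in KO against WT (upper point) and HET against WT (lower point), from the limma fit over all probe sets with sex as a covariate, with 95% intervals that are not adjusted for multiple testing. All KO points lie below 0, the intervals of Fos, Fosb and Jun span several log2 units, and only those of Junb and Atf3 in KO against WT exclude 0.

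Genes beyond the set shared the 6 highest mice of Fosb, a description chosen after its values were seen. Of the 18192 other named genes, 51 had the same 6 highest mice. Among the other 9 genes of the set 3 did, Fos, Dusp1 and Jund. Of 23 other immediate early transcription factors 3 did, Csrnp1, Egr1 and Klf4. Of 40 further early or feedback genes 5 did, namely Ppp1r15a, Rgs1, Sgk1, Tsc22d3 and Zfp36l2. The gap below these 6 mice was 3.13 in Fosb, 0.60 in Rgs1, 0.58 in Klf4 and 0.48 in Ppp1r15a. In Egr1, Csrnp1, Zfp36l2, Tsc22d3 and Sgk1 it was only 0.04 to 0.18, so the same order of mice there is no clear step. Heat shock genes, also known to respond to cell handling, had 0 of 11. With only 51 of 18192 genes sharing these mice, 0 among so few genes carries little information, and the part of handling was not tested. Their mean level was highest in KO 5, at 11.20, where the other 13 mice had 10.18 to 10.72, and KO 5 was high in Jun but not in Fosb.

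Of 6 markers of natural killer cells measured, 3 moved with the division and had the same 6 highest mice, the granule protease Gzma, the receptor chain Klrd1 and the granule protein Nkg7. Gzma read 9.40, 4.20, 3.89, 3.70 and 4.09 in KO mice 1 to 5, 6.29, 8.40, 4.20, 3.82 and 3.93 in HET mice 1 to 5, and 7.88, 8.41, 9.45 and 3.95 in WT mice 1 to 4. The summed intensity of the 6 markers was 759 to 1911 in KO, 650 to 1289 in HET and 786 to 1820 in WT mice, ranges of the genotypes that overlapped. Across the division, the mean log2 intensity of these 6 markers was 6.06 to 7.61 in the 6 mice high in Fosb. In the other mice it was 5.15 to 5.67. Gzma, Klrd1 and Nkg7 averaged 5.83, 5.64 and 6.04, below the filter level of 6.43, so they were not among the genes tested. The defining marker Ncr1 lay at 3.19 to 4.78 in every mouse, and Prf1, the only marker above that level, at 9.03 to 9.55 did not divide the mice. Of 10 macrophage markers 1 had these 6 highest mice, Cd68. T cell markers had 0 of 8, and B lineage and germinal centre markers 0 of 7 and 0 of 8. Since 51 of 18192 genes shared these mice, a count of 0 in so short a list carries little information. The part of natural killer cells in the levels of Fos, Fosb, Jun and Dusp1 was not tested.

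Genes most like the set were sought among all others tested, by the correlation over the 14 mice of their residuals, group and sex removed, with the mean standardised residual of the 8 genes. The 8 highest were Rchy1 (Pearson r = 0.93), Rgs1 (0.91), Csrnp1 (0.90), Dyrk3 (0.89), Tma16, Mta3 and Ppp1r15a (0.87 each) and Ccnl1 (0.86). The mice fall into clusters in this measure, so r is given as a description and has no p. With group and sex removed, a high r does not require the same 6 highest mice as Fosb. Among the 8, Rgs1, Csrnp1 and Ppp1r15a had these mice, and the others did not. Rchy1 read 10.13, 10.20 and 10.08 in WT 1, WT 2 and WT 3, and 10.27 in KO 5. Rgs1, which dampens chemokine receptor signals, had the widest spread of the 8, with a residual SD of 1.15. The kinase Dyrk3 alone among the 8 also passed in KO against WT, where it fell by 0.54 (SE 0.10, limma adjusted p = 0.0143).

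**Figure D5:**
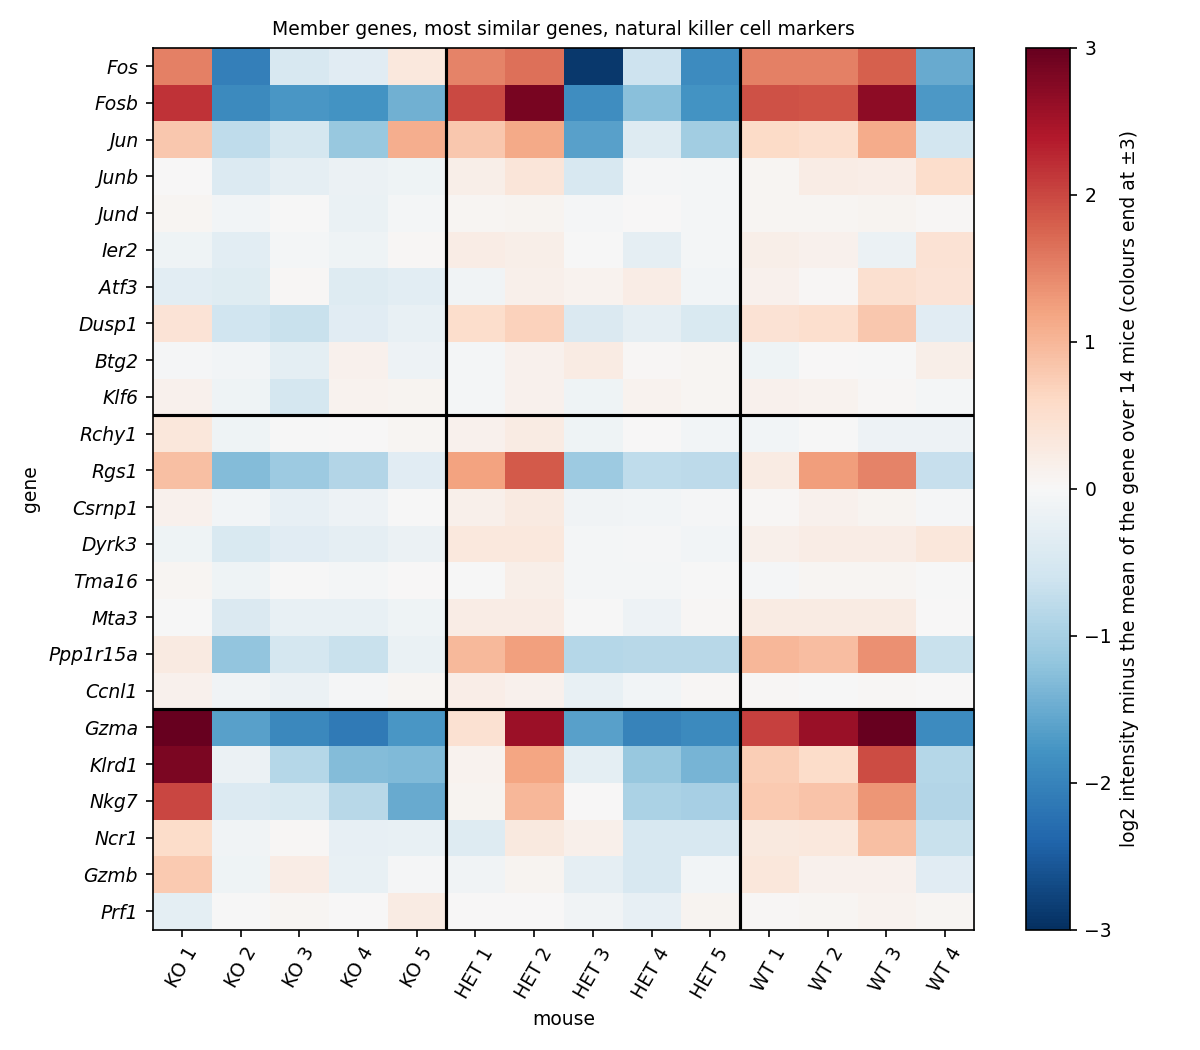
Log2 intensity minus the mean of each gene over 14 mice, for the 10 genes, the 8 genes most like them and 6 natural killer cell markers, in KO, HET and WT mice; colours end at ±3. Columns KO 1, HET 1, HET 2, WT 1, WT 2 and WT 3 are red in Fos, Fosb, Dusp1, Rgs1, Ppp1r15a and Gzma.

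Other genes of the early response did pass in KO mice. Of 23 further immediate early transcription factors, all tested, 3 fell in KO against WT and 0 rose, when 1.26% of all genes tested fell and 1.17% rose. A negative change was seen in 21 (median -0.19), when 51.0% of all genes tested had one. Csrnp1, Egr1 and Klf4 among the 23 had the 6 highest mice of Fosb. These mice include WT 1, WT 2 and WT 3 but only KO 1 of the KO mice, so the signs are not separate evidence. Those that fell were the orphan receptor Nr4a1 (-0.86, SE 0.10, limma adjusted p = 0.000848), the zinc finger factor Egr3 (-0.64, SE 0.14, adjusted p = 0.0271) and the clock gene Per1 (-0.52, SE 0.10, adjusted p = 0.0184). Egr2 had -0.40 (SE 0.12) and did not pass. Nr4a1 read 6.02 to 6.41 in KO, 6.47 to 6.95 in HET and 6.81 to 7.37 in WT mice, so its KO values lay below all others. They also lay below the filter level of 6.43, a level not shown to be above background. With a mean of 6.62, Nr4a1 passed that filter through the HET and WT mice. It also fell in KO against HET (-0.53, SE 0.10, adjusted p = 0.0453).

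Of 33 early or feedback genes tested that are not transcription factors, 2 fell and 1 rose in KO against WT, when 1.26% of all genes tested fell and 1.17% rose. A negative change was seen in 29 (median -0.28), when 51.0% of all genes tested had one. Ppp1r15a, Rgs1, Sgk1, Tsc22d3 and Zfp36l2 among the 33 had the 6 highest mice of Fosb, so these signs are not separate evidence either. The activation marker Cd69 fell by 0.52 (SE 0.13, limma adjusted p = 0.0496) and Rgs2, a brake on receptor signals, by 0.38 (SE 0.09, adjusted p = 0.0424). Spry2, a feedback inhibitor of receptor kinase signals, rose by 1.38 (SE 0.20, adjusted p = 0.00346), and by 1.18 in KO against HET (SE 0.19, adjusted p = 0.0291). It read 6.66 to 7.70 in KO, 5.69 to 6.48 in HET and 5.72 to 6.03 in WT mice. Its mean of 6.48 passed the filter level of 6.43 through the KO mice, the group in which it was called higher. The rise is set against a WT level not shown to be above background. Zfp36l2, which promotes decay of early transcripts, had -0.44 (SE 0.12) and did not pass.

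Of 12 other bZIP factors tested, 1 fell in KO against WT, the AP-1 repressor Jdp2 (-0.46, SE 0.11, limma adjusted p = 0.0421), and 7 had a negative change (median -0.02). Of all genes tested 1.26% fell in that comparison, and 51.0% had a negative change. Mafk, Bach1 and Atf4 had the next smallest p, with changes of -0.17 (SE 0.08), 0.12 (SE 0.08) and -0.13 (SE 0.10). Of 20 kinases and factors that act upstream of these genes, 1 fell, against the same 1.26% of all genes tested. It was Crebbp itself on its brightest probe set, 1435224_at (-0.41, SE 0.09, limma adjusted p = 0.0372 in the fit over genes). In the fit over all probe sets the same probe set had limma adjusted p = 0.136 and did not pass. The median change of the 20 was -0.02. Elk3, Map2k1 and Srf had -0.25 (SE 0.08), -0.25 (SE 0.09) and -0.20 (SE 0.08) and did not pass. Of 9 heat shock genes tested 0 were called in KO against WT, when 2.44% of all genes tested were. Also 0 had an unadjusted limma p under 0.05, when 13.1% of all genes tested did. In HET against WT 0 genes of these 5 lists were called, when 0% of all genes were. In that comparison 2 of the 23 other immediate early transcription factors had an unadjusted limma p under 0.05, when 2.74% of all genes tested did. Of the 12 bZIP factors, 33 early or feedback genes, 20 upstream genes and 9 heat shock genes tested, 0 did.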

How the data were processed

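Each mouse gave 1 array. The authors deposited a log2 intensity for every probe set. RMA is named in the submitters' processing notes, with no version in the sources used here. It corrects background, equalises array distributions by quantiles and combines probes. Such normalisation would hide a shift shared by most genes. No detection calls were used, and the number of arrays limits the precision.

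Of 45101 probe sets 64 were controls. The annotation named 1 gene for 34945, and 34741 of these matched RefSeq (GRCm38.p6) by gene identifier. The brightest probe set stood for a gene in the fit of 10225 genes, and a second fit took all 45037 probe sets. Both used lmFit and eBayes of limma 3.58.1 (R 4.3.3) with terms for group and sex on the 14 arrays, Benjamini-Hochberg adjustment over all features and a threshold of 0.05. The fit was tested on simulated data. Promoter sequences came from RefSeq. Genes named are the 10 of the set, list genes that passed or had the 4 smallest p in KO against WT, and the 8 most alike. The set, the lists and the pair KO 3 and WT 4 were chosen with earlier results of these data known, so no list is independent evidence. Genes named from the shared 6 highest mice, the marker genes and Klf4, Egr1, Sgk1 and Tsc22d3 were named after their values were seen.

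Alternatives were no and stricter filters, other handling of probe sets, repeated quantile normalisation, median centring, no sex term, females alone, limma's trend, robust and array weight options, a block for replicate number, a fit of 2 groups only, a threshold of 0.10, and leaving out each array or KO 3 with WT 4. Any 2 arrays had at most 58 values in common.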

Additional observations from a re-analysis of the deposited data

Results flagged for a closer look

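In 51 combinations of probe set and genotype, the highest or lowest mouse was compared with its group by Dixon's test, which by chance flags about 1 in 20 groups, and 3 stood out. Fos was 9.10 in WT 4, where WT 1, WT 2 and WT 3 lay between 12.12 and 12.41. Fosb was 7.65 in KO 1, where the other KO mice lay between 3.58 and 4.05. Atf3 was 6.42 in KO 3, where the other KO mice lay between 5.98 and 6.07.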

How the results depend on the processing

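Of the results recomputed under 29 alternatives (28 for Junb and Ier2, which the stricter filter removes, and 25 for Fosb and Atf3, which are read from the fit without a filter), 1040 values kept direction and side of the threshold or moved little, 35 counts or medians moved, 25 values changed sign and 1 gained a call. The number of the 8 genes called stayed 0 in HET against WT and KO against HET, and was 0 to 1 in KO against WT when single arrays were left out, the 1 being Junb without HET 2. In KO against WT the median change of the 8 genes lay between -0.42 and -0.30.

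The changes of sign were in Fos, Jun, Btg2 and Klf6, none of them called in either direction, and the cause was not tested. The KO difference from HET of Jun was -0.085 with the mean of all probe sets, -0.32 in females alone, -0.52 with array weights, -0.084 with only the groups compared, -0.15 without KO 3 and WT 4, and -0.26 to 0.38 with single arrays left out. That of Fos was -0.79 with array weights, -0.043 without KO 3 and WT 4, and -0.32 to 0.94 with single arrays left out, negative without KO 1, HET 3 or HET 5. That of Klf6 was 0.030 without KO 3 and WT 4 and -0.18 to 0.042 with single arrays left out. The KO change of Btg2 was 0.060 with array weights, 0.14 without KO 3 and WT 4, and -0.18 to 0.0020 with single arrays left out, and its HET change was -0.026 with the mean of all probe sets. The KO change of Klf6 was -0.23 to 0.027 and its HET change -0.11 to 0.0051 with single arrays left out. The median of the 8 genes in KO against HET was -0.29 with array weights.

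The background counts moved more. Genes called in KO against WT were 249, and 79 in females alone, 98 with only the groups compared, 424 at the looser threshold, 75 without KO 3 and WT 4, and 130 to 259 with single arrays left out, lowest without WT 4. In HET against WT they were 0, and 6 with array weights. In KO against HET they were 27, and 2 without a filter, 5 with a stricter one, 0 with every probe set on its own, 41 after median centring, 0 in females alone, 72 with array weights, 5 with only the groups compared, 48 at the looser threshold, 13 without KO 3 and WT 4, and 0 to 25 with single arrays left out. 

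The mice were not treated as paired by replicate number. Deviations of the 13 same-numbered pairs correlated between -0.17 and 0.38, with 9 and so not all over 0.1, where 13 of 52 different-numbered pairs were over 0.1. Of 14 mice 8 were most like one of their own number, a hint from the data and not from the design. With the replicate number as a block 0 of the 8 genes were called in each comparison, and genes called were 198 in KO against WT, 1 in HET against WT and 16 in KO against HET.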
